A study of Mus musculus with 12 samples.

Results

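The smooth muscle contractile genes measured here encode the actin filaments, tropomyosins, myosin II subunits and filament-bound proteins with which smooth muscle cells and myofibroblasts pull on their surroundings. The 10 members, *Acta2*, *Tagln*, *Cnn1*, *Myl9*, *Myh11*, *Actg2*, *Tpm1*, *Tpm2*, *Tpm4* and *Des*, were chosen by gene symbol as the contractile genes most often used to describe myofibroblasts. They are 10 of the 40760 genes in the deposited count table, and all 10 passed the filter on low counts that left 17418 genes for testing. Their RNA was measured in 12 bulk libraries of Cd140a+ cells, that is, cells carrying the PDGF receptor alpha (Pdgfra) on their surface, sorted from mouse lung.

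The libraries fell into 4 groups of 3, made by the genotype at *Pear1*, which encodes a platelet and endothelial receptor of the EGF-repeat family, and by the treatment. WT mice received vehicle or bleomycin (bleo), a drug that injures the lung and is used to induce fibrosis, and *Pear1*-/- mice received either as well. All mice were male, and the study used C57BL/6 mice of 8 to 12 weeks of age unless it said otherwise. The *Pear1*-/- mice carried a knockout-first allele, in which a splice acceptor cassette in an intron traps the transcript in every cell of the animal, so the genotype was not limited to the sorted cells. In the study's fibrosis model bleo was aerosolized into the airway at 1.5 or 2 µg per g of body weight and lungs were analysed on day 21, but neither the labels nor the methods say which dose or day applies to these bulk samples, or how many mice went into a library. Elsewhere in the study, flow cytometry of lung defined Pdgfra+ mesenchymal cells as negative for CD45, CD31 and CD326, the surface markers of leukocytes, endothelium and epithelium. The descriptions of the bulk sort name Pdgfra alone, and whether the same gates were used is not stated there. Where nothing says that replicates came from separate mice, p-values measure only the spread between these libraries, which may be technical.

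In smooth muscle, and in myofibroblasts that form in wounds and scars, force comes from myosin II sliding along actin filaments. Phosphorylation of the regulatory light chain switches the myosin on, tropomyosin lies along the actin filament, calponin and transgelin bind the filament and stabilise it, and desmin forms intermediate filaments that link the contractile units. Many of these genes are controlled by serum response factor (SRF), which binds a DNA element called the CArG box, together with myocardin (*Myocd*) or the actin-sensing cofactors MRTF-A and MRTF-B (*Mkl1*, *Mkl2* in these files). Myofibroblasts characteristically gain *Acta2* and stress fibres, whereas the smooth muscle myosin heavy chain *Myh11* is characteristic of mature smooth muscle.

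To show the regulatory DNA that members of this family are known for, promoter windows from RefSeq (GRCm38.p6, 250 bases before to 50 after the start of transcription) were searched for the CArG box, CC and GG around 6 bases that are all A or T. Windows were matched for 7 of the 10 members, all but *Tagln*, *Myh11* and *Actg2*. The strict element was found in 1 of the 7, *Myl9*, and in 1.63% of the 32851 mouse promoters of the same length. A form with at least 5 A or T of 6, chosen after the strict search had been seen, was found in *Myl9* and *Acta2* and in 9.98% of all promoters, overlapping the strict matches. The windows below are in the direction of transcription, with the element in capitals (strict in the first, 5 of 6 in the rest), and are shown because *Acta2* and *Myl9*, the members with such an element, took different courses after bleo.
Myl9, element 161 bases before the start, chr2:156775293-156775322, plus strand: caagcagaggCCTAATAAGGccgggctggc
Myl9, element 99 bases before the start, chr2:156775355-156775384, plus strand: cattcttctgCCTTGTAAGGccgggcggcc
Acta2, element 84 bases before the start, chr19:34255438-34255467, minus strand: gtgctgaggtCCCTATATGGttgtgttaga
Acta2, element 34 bases before the start, chr19:34255388-34255417, minus strand: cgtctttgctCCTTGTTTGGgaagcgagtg
In the GENCODE M21 annotation both *Myl9* windows lie outside any gene, upstream of *Myl9*, and both *Acta2* windows lie in an untranslated exon of a longer *Acta2* transcript model. The element CATTCC, bound by TEAD factors, was found on either strand in *Tpm1*, 56 bases before the start, and in *Acta2*, 146 bases before it, against 14.7% of all promoters. TATAAA on either strand was in 0 of the 7 and in 13.6% of all. A match describes the letters in a window and was not tested for binding.

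Total counts ran from 6702948 to 10447101 per library. Within a group, pairs of libraries differed by a chi-square of 1.35 to 4.82 per degree of freedom, where 1 is counting noise, except that WT vehicle replicate 2 gave 21.2 and 21.8 against replicates 1 and 3. Against the 3 libraries labelled *Pear1*-/- vehicle the same library gave 1.73, 2.13 and 2.67. These are values that replicates of 1 group also gave. The library labelled WT vehicle replicate 2 was nearer to the vehicle group of the other genotype than to its own. *Pear1* itself had 576, 545 and 519 normalized counts in WT vehicle and 511, 501 and 547 in the vehicle libraries labelled *Pear1*-/-, a log2 difference of -0.078 (standard error 0.0766, adjusted p = 0.49). After bleo it had 256, 239 and 266 in WT and 355, 372 and 344 in the libraries labelled *Pear1*-/-, a difference of 0.48 (standard error 0.0811, adjusted p = 7.54e-05). *Pear1* was thus not called lower in the libraries labelled *Pear1*-/- in either comparison. By themselves these counts neither bear out nor contradict the label. Gene-level counts do not tell a trapped transcript from a full one, and counts by exon were not analysed here. A group is therefore named throughout by its label. The sort marker *Pdgfra* was present in every library, at 4802, 4195 and 4698 normalized counts in WT vehicle, 1348, 1338 and 1394 in WT bleo and 2403, 2369.9 and 2402 in the bleo libraries labelled *Pear1*-/-. *Ptprc* (CD45), the defining leukocyte marker, was also present throughout and reached 7579, 7727 and 7542 in WT bleo, so these libraries held leukocyte RNA beside that of mesenchymal cells. A bulk library cannot assign the contractile genes to myofibroblasts, smooth muscle cells or pericytes, and fewer cells of a type cannot be told apart from less RNA per cell.

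In normalized counts the 10 genes followed 4 courses after bleo. *Acta2*, *Tagln* and *Tpm2* stayed close to the vehicle level in WT bleo and were far above it in the bleo libraries labelled *Pear1*-/-. *Des*, *Actg2*, *Tpm1* and *Tpm4* were higher after bleo in both genotypes, and more so in those labelled *Pear1*-/-. *Myl9* and *Cnn1* fell in WT bleo and were at or near the vehicle level in the bleo libraries labelled *Pear1*-/-, and *Myh11* fell steeply in both. Summed over the 10 genes, normalized counts (the deposited values, each library scaled by its DESeq2 size factor) were 12284 to 12925 in WT vehicle, 12761 to 13128 in the vehicle libraries labelled *Pear1*-/-, 12573 to 12916 in WT bleo and 29452 to 29952 in the bleo libraries labelled *Pear1*-/-. The sums of the first 3 groups overlapped, and every bleo library labelled *Pear1*-/- lay above them.

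**Figure D1:**
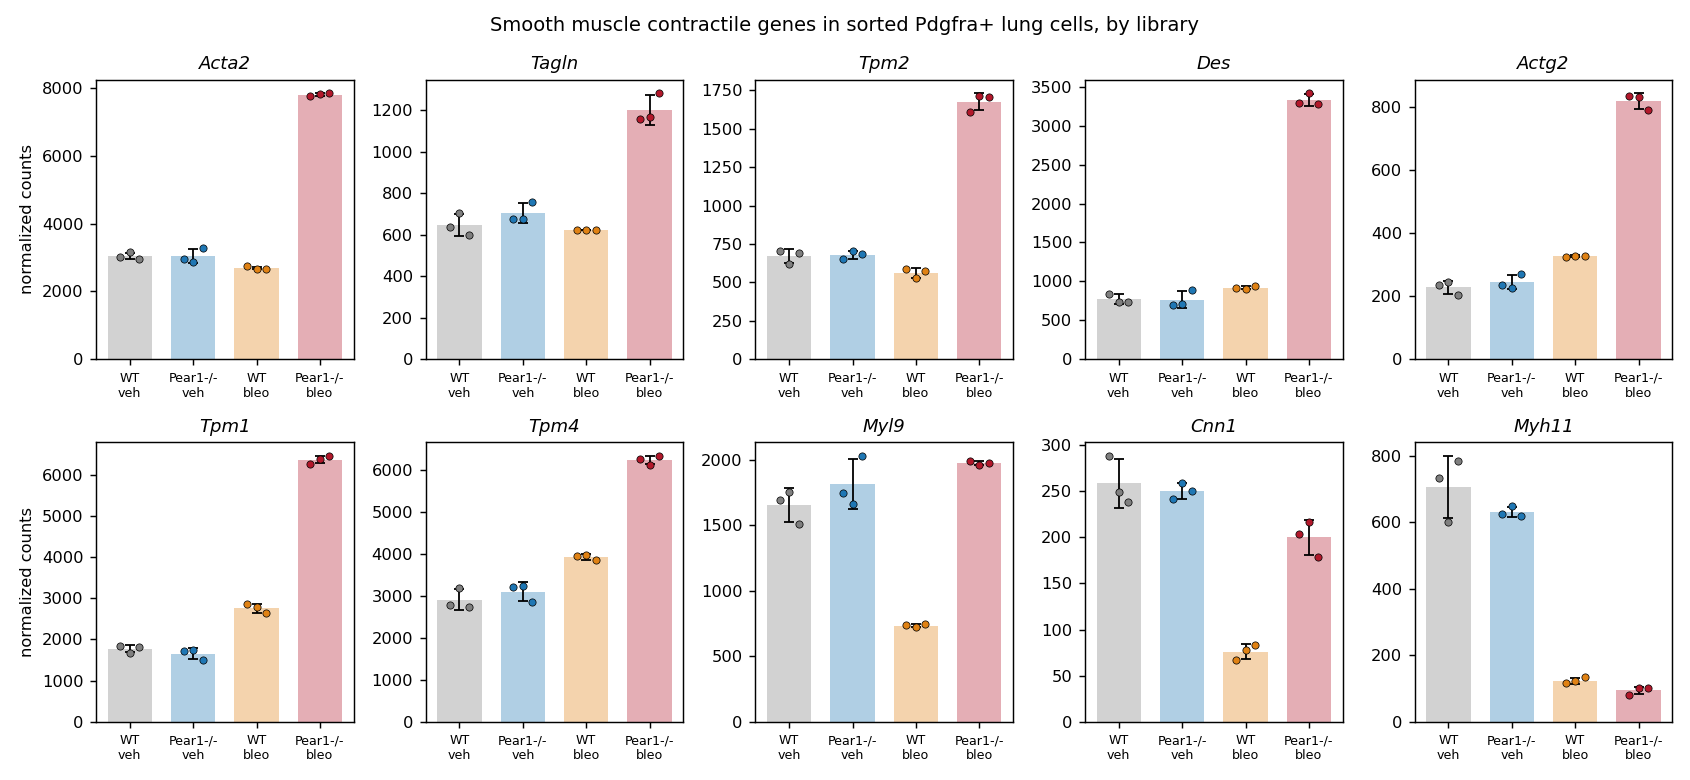
Normalized counts (y axis, linear from 0, each panel with its own scale) of the 10 contractile genes in the 4 groups (x axis, veh is vehicle). Points are the 3 libraries of a group, bars their mean and error bars the SD. The libraries labelled *Pear1*-/- bleo are the highest of all 12 for *Acta2*, *Tagln*, *Tpm2*, *Des*, *Actg2*, *Tpm1* and *Tpm4*, and the lowest for *Myh11*.

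Called here means an adjusted p under 0.05 in edgeR's quasi-likelihood test with Benjamini-Hochberg adjustment over the 17418 genes, and past both criteria means called with a fold change above 2. Between WT bleo and WT vehicle, 4 members were higher and 5 lower, where 31.4% of all genes were called higher and 36.5% lower. Past both criteria were 3 lower members, *Cnn1*, *Myl9* and *Myh11*, and 0 higher ones, against 23.3% and 10.5% of all genes. The median log2 fold change of the members was -0.11, beside -0.071 for all genes. Without the library labelled WT vehicle replicate 2, 4 members were higher and 4 lower, in a fit that called 31.7% of all genes higher and 44.7% lower. Shares called in this comparison were thus near the background in both directions. Between the bleo libraries labelled *Pear1*-/- and the vehicle libraries labelled *Pear1*-/-, 7 members were higher and 2 lower, against 29.1% and 33.1% of all genes, and the member median was 1.16 beside -0.048. Of these, 6 higher members and 1 lower member, *Myh11*, passed both criteria, against 8.37% and 19.3% of all genes.

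When the bleo groups were set against each other, 9 of the 10 members were higher in the libraries labelled *Pear1*-/- and 1, *Myh11*, was lower, against 22.1% of all genes called higher and 24.0% called lower. Past both criteria were 7 higher members, all but *Tagln*, *Tpm4* and *Myh11*, against 6.22% of all genes higher and 8.80% lower. The median over the members was 1.35 on the log2 scale and that of all genes -0.013. The same 9 members were higher, and *Myh11* lower, without overlap between the 3 and 3 libraries, as were 31.3% of all genes in the higher and 31.6% in the lower direction. The test of whether bleo acted differently by genotype, the interaction of the 2 factors, called 9 members with a positive difference, the log2 effect in the libraries labelled *Pear1*-/- minus that in WT, and 0 with a negative one, against 17.8% and 19.3% of all genes. For *Cnn1* and *Myl9* the positive value means a smaller fall or none, and for the other 7 a higher level after bleo. Past both criteria in the interaction were 7 members with a positive difference and 0 with a negative one, against 8.53% and 6.98%. These comparisons share libraries, since WT bleo enters the WT comparison, the comparison of the bleo groups and the interaction, so their values stand side by side and are not separate evidence.

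The vehicle groups were compared to see whether the members differed by genotype without bleo. Between the vehicle libraries labelled *Pear1*-/- and WT vehicle, edgeR called 0 members, against 1.95% of all genes higher and 5.29% lower. At an unadjusted p under 0.05 the count was also 0, where 31.4% of all genes passed, by DESeq2 and limma it was 0 as well, and the log2 fold changes lay between -0.17 and 0.13. This count rested on the library labelled WT vehicle replicate 2, which was closer to the vehicle libraries labelled *Pear1*-/- than to its own group. Without it, *Tagln* was higher by 0.25, *Myl9* by 0.25 and *Tpm4* by 0.24 on the log2 scale and *Myh11* was lower at -0.20 (adjusted p = 0.00341, 0.00133, 0.000288 and 0.0238). The same fit called 25.5% of all genes higher and 29.7% lower, shares near or above those of the members.

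**Figure D2:**
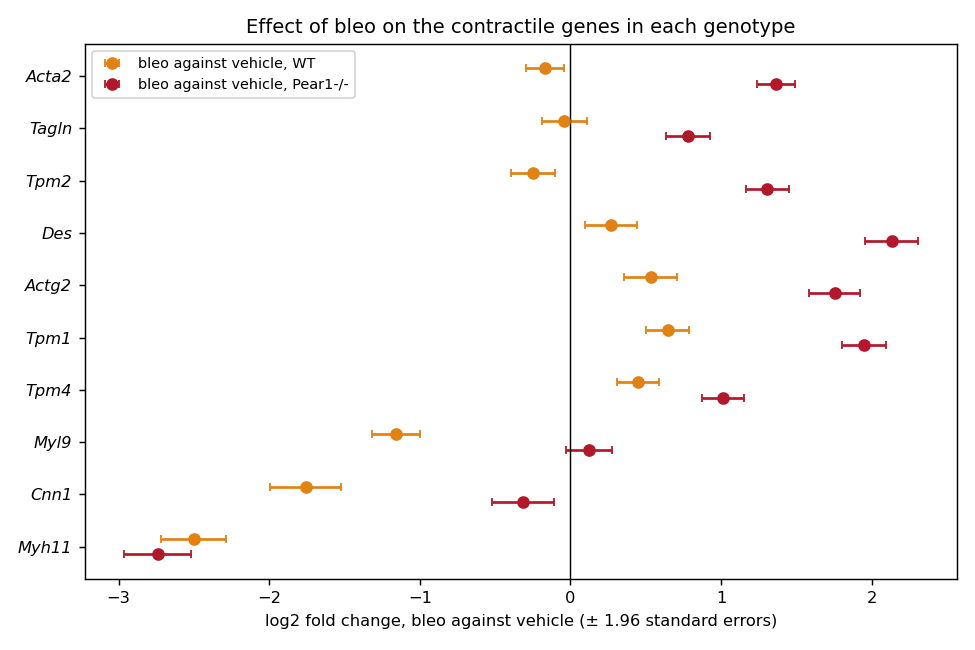
Log2 fold change of bleo against vehicle (x axis) for each member (y axis) in WT (orange) and in the libraries labelled *Pear1*-/- (red), with bars of 1.96 standard errors. The red points lie to the right of the orange ones for 9 genes, and the bars of both genotypes overlap for *Myh11* alone.

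*Acta2* (ENSMUSG00000035783, chr19:34241090-34255590, minus strand, GRCm38) encodes smooth muscle alpha-actin, by which myofibroblasts are usually recognised. It had 3022, 3152 and 2963 normalized counts in WT vehicle and 2966, 2870.2 and 3287 in the vehicle libraries labelled *Pear1*-/-. After bleo it had 2733, 2668 and 2667 in WT and 7754, 7822 and 7846 in the libraries labelled *Pear1*-/-. The last 3 libraries stood apart from the other 9, while WT bleo lay just under both vehicle groups, without overlap. The bleo groups differed by 1.52 (standard error 0.0653, adjusted p = 1.21e-12) on the log2 scale, a level 2.88 times as high, and within the bleo libraries labelled *Pear1*-/- against vehicle gave 1.36 (standard error 0.0650, adjusted p = 1.50e-12). In WT the difference of -0.17 (standard error 0.0642, adjusted p = 0.0269) was called, but only 8 of 20 alternative fits kept that call. *Actg2* (ENSMUSG00000059430, chr6:83512905-83536265, minus strand), which encodes the smooth muscle gamma-actin of the gut, had 235, 245 and 203 in WT vehicle, 235, 227 and 271 in the vehicle libraries labelled *Pear1*-/-, 323, 327 and 329 in WT bleo and 836, 833 and 791 in the bleo libraries labelled *Pear1*-/-. Unlike *Acta2* it rose in WT as well, by 0.53 (standard error 0.0906, adjusted p = 4.16e-05), and the bleo groups differed by 1.32 (standard error 0.0835, adjusted p = 2.52e-10).

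Desmin, the muscle intermediate filament protein, was the member with the largest difference between the bleo groups, 1.84 (standard error 0.0877, adjusted p = 5.03e-12). *Des* (ENSMUSG00000026208, chr1:75360329-75368579, plus strand) had 842, 731 and 738 normalized counts in WT vehicle, 697, 708 and 886 in the vehicle libraries labelled *Pear1*-/-, 915, 908 and 939 in WT bleo and 3293, 3424 and 3288 in the bleo libraries labelled *Pear1*-/-. The vehicle groups overlapped, WT bleo lay just above both, and the bleo libraries labelled *Pear1*-/- lay far above the rest. The log2 fold change of bleo was 0.27 (standard error 0.0875, adjusted p = 0.0108) in WT and 2.13 (standard error 0.0888, adjusted p = 1.83e-13) in the libraries labelled *Pear1*-/-, and the difference between those effects was 1.86 (standard error 0.123, adjusted p = 1.84e-09). The call in WT was lost, at 0.17 (adjusted p = 0.117), when libraries were scaled by total counts, which moved the median of all genes in that comparison by -0.10.

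The 3 tropomyosin genes among the members encode proteins that lie along actin filaments and govern access of myosin, and all 3 were higher than WT bleo in the bleo libraries labelled *Pear1*-/-. *Tpm1* (ENSMUSG00000032366, chr9:67022590-67049406, minus strand) had 1843, 1672 and 1813 normalized counts in WT vehicle, 1709, 1753 and 1497 in the vehicle libraries labelled *Pear1*-/-, 2854, 2779 and 2631 in WT bleo and 6265, 6381 and 6449 in the bleo libraries labelled *Pear1*-/-. It thus rose in both genotypes, by 0.64 (standard error 0.0716, adjusted p = 2.26e-07) in WT and 1.95 (standard error 0.0734, adjusted p = 4.43e-14) in the libraries labelled *Pear1*-/-, with no overlap between any bleo and vehicle library. *Tpm2* (ENSMUSG00000028464, chr4:43514711-43523765, minus strand), the beta-tropomyosin, had 703, 619 and 691 in WT vehicle, 651, 703 and 682 in the vehicle libraries labelled *Pear1*-/-, 583, 525 and 573 in WT bleo and 1612, 1711 and 1706 in the bleo libraries labelled *Pear1*-/-. Its course was that of *Acta2*, slightly under vehicle in WT bleo, at -0.25 (standard error 0.0741, adjusted p = 0.0063), a call lost without WT bleo replicate 2 (-0.16, adjusted p = 0.129), and far above it in the bleo libraries labelled *Pear1*-/-, at 1.57 (standard error 0.0734, adjusted p = 3.91e-12) against WT bleo.

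*Tpm4* (ENSMUSG00000031799, chr8:72134975-72153142, plus strand) encodes a tropomyosin that non-muscle cells use as well. It had 2781, 3193 and 2742 normalized counts in WT vehicle, 3212, 3246 and 2844 in the vehicle libraries labelled *Pear1*-/-, 3961, 3983 and 3848 in WT bleo and 6258, 6128 and 6334 in the bleo libraries labelled *Pear1*-/-. Its log2 differences were 0.45 (standard error 0.0709, adjusted p = 1.85e-05) in WT, 1.01 (standard error 0.0712, adjusted p = 4.74e-10) in the libraries labelled *Pear1*-/- and 0.65 (standard error 0.0708, adjusted p = 3.65e-07) between the bleo groups. Of the 50-base stretches of its transcripts, 15.7% also occur in transcripts of other genes, *Gm7809* and *Gm26586*, which had at most 16 counts in any library.

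Transgelin (SM22-alpha) and calponin 1 both bind actin filaments, yet their genes took different courses. *Tagln* (ENSMUSG00000032085, chr9:45929619-45936058, minus strand) had 635, 704 and 601 normalized counts in WT vehicle, 674, 677 and 758 in the vehicle libraries labelled *Pear1*-/-, 625, 622 and 624 in WT bleo and 1157, 1166 and 1284 in the bleo libraries labelled *Pear1*-/-. WT bleo overlapped WT vehicle, with a log2 difference of -0.042 (standard error 0.0761, adjusted p = 0.637) whose 95% interval ran from -0.19 to 0.11. The libraries labelled *Pear1*-/- bleo were higher than WT bleo by 0.93 (standard error 0.0748, adjusted p = 6.18e-09). *Tagln* shares exonic bases with genes on the opposite strand, 1241 with *Gm48529* and 108 with *Pcsk7*, and the library kit does not mark strand, so reads there could not be told apart. *Pcsk7* had 188 to 373 counts per library.

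*Cnn1* (ENSMUSG00000001349, chr9:22099216-22109630, plus strand) had 289, 249.6 and 238 normalized counts in WT vehicle, 241, 259 and 249.9 in the vehicle libraries labelled *Pear1*-/-, 67.0, 77.5 and 83.0 in WT bleo and 204, 217 and 179 in the bleo libraries labelled *Pear1*-/-. WT bleo was the lowest group and the bleo libraries labelled *Pear1*-/- lay between it and vehicle, with no overlap on either side. The fall was -1.76 (standard error 0.121, adjusted p = 2.44e-10) in WT and -0.32 (standard error 0.106, adjusted p = 0.0144) in the libraries labelled *Pear1*-/-, and the bleo groups differed by 1.39 (standard error 0.122, adjusted p = 2.21e-08). The smaller fall lost its call without *Pear1*-/- bleo replicate 3, at -0.26 (adjusted p = 0.0787).

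The myosin II subunits separated from each other. *Myl9* (ENSMUSG00000067818, chr2:156775420-156781658, plus strand), which encodes the regulatory light chain whose phosphorylation starts contraction, had 1697, 1759.5 and 1511 normalized counts in WT vehicle and 1751, 1668 and 2033 in the vehicle libraries labelled *Pear1*-/-. After bleo it had 738, 722 and 745 in WT and 1991, 1963 and 1974 in the libraries labelled *Pear1*-/-, so WT bleo stood alone below the other 3 groups, and the bleo libraries labelled *Pear1*-/- lay within the range of their vehicle group. The fall in WT was -1.16 (standard error 0.0802, adjusted p = 2.52e-10), the difference in the libraries labelled *Pear1*-/- was 0.13 (standard error 0.0779, adjusted p = 0.169), and the bleo groups differed by 1.41 (standard error 0.0803, adjusted p = 5.37e-11). *Myh11* (ENSMUSG00000018830, chr16:14194535-14291372, minus strand), the smooth muscle myosin heavy chain, had 734, 601 and 783 in WT vehicle, 625, 649 and 619 in the vehicle libraries labelled *Pear1*-/-, 116, 121 and 134 in WT bleo and 80.8, 101 and 100.1 in the bleo libraries labelled *Pear1*-/-. It was the one member that was lowest in the bleo libraries labelled *Pear1*-/-, with falls of -2.50 (standard error 0.110, adjusted p = 2.72e-13) in WT and -2.74 (standard error 0.113, adjusted p = 1.53e-13) in the libraries labelled *Pear1*-/-. The interaction was -0.24 (standard error 0.159, adjusted p = 0.254), so a difference between these falls was not shown, and the lower level in the bleo libraries labelled *Pear1*-/- than in WT bleo, -0.40 (standard error 0.127, adjusted p = 0.0134), lost its call without WT bleo replicate 3 (adjusted p = 0.0501) or *Pear1*-/- bleo replicate 1 (adjusted p = 0.0654).

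To compare levels between members, normalized counts were divided by the length of each gene's exons in GENCODE M21, those of all its transcripts joined. The joined length can exceed that of the transcripts present, so the order below depends on it. In the bleo libraries labelled *Pear1*-/-, *Tpm1* had 6365 ± 92.9 normalized counts beside 6240 ± 104 for *Tpm4* (SD, n = 3). Over its 6485 joined bases that was 982 ± 14.3 per kilobase. Per kilobase, *Myl9*, *Acta2* and *Tpm4* were the most abundant in WT vehicle, at 1425 ± 111, 1387 ± 44.0 and 1319 ± 114 (SD, n = 3), and their ranges overlapped. *Tagln* had 325 ± 26.4, *Tpm1* 274 ± 14.1, *Tpm2* 231 ± 15.7, *Des* 205 ± 16.5, *Actg2* 146 ± 14.1, *Cnn1* 94.6 ± 9.68 and *Myh11* 92.9 ± 12.4 per kilobase. In the bleo libraries labelled *Pear1*-/- the order was headed by *Acta2* at 3555 ± 21.6, *Tpm4* at 2833 ± 47.3 and *Myl9* at 1701 ± 11.9, without overlap between them, and *Myh11* was last at 12.4 ± 1.52. In WT bleo *Tpm4* led at 1784 ± 32.9, ahead of *Acta2* at 1225 ± 17.4 and *Myl9* at 633 ± 10.2. On this scale *Myl9* and *Acta2* were thus close to each other in WT vehicle, and *Acta2* was ahead of *Myl9* in both bleo groups.

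Each smooth muscle protein has close relatives in non-muscle cells, and the share of a family's counts that falls on the smooth muscle members does not depend on library scaling. The shares are of counts, not corrected for length. *Acta2* and *Actg2* took 4.48, 4.31 and 4.51% of the counts of the actin genes in WT vehicle, 4.25, 4.17 and 4.10% in the vehicle libraries labelled *Pear1*-/-, 1.90, 1.86 and 1.85% in WT bleo and 6.39, 6.44 and 6.46% in the bleo libraries labelled *Pear1*-/-. Beta-actin (*Actb*), the main actin of non-muscle cells, which is part of the total, rose by 1.26 (standard error 0.0586, adjusted p = 6.67e-13) in WT bleo. The smooth muscle share was lowest in WT bleo and highest in the bleo libraries labelled *Pear1*-/-, with no overlap between these or with either vehicle group. The share of *Myl9* among the regulatory light chains was 28.3, 25.5 and 26.9% in WT vehicle, 9.95, 9.55 and 10.3% in WT bleo and 24.0, 23.5 and 23.1% in the bleo libraries labelled *Pear1*-/-. *Des* took 13.7% ± 1.30 (SD, n = 3) of the counts of *Des* and *Vim* in WT vehicle, 10.4% ± 0.354 in WT bleo and 25.5% ± 0.890 in the bleo libraries labelled *Pear1*-/-. In these 3 families the bleo libraries labelled *Pear1*-/- lay above WT bleo in every library.

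For *Tpm1* and *Tpm2* the share of tropomyosin counts was 28.1% ± 2.51 in WT vehicle, 26.5% ± 0.398 in WT bleo and 43.0% ± 0.325 in the bleo libraries labelled *Pear1*-/- (SD, n = 3). *Tagln* had 10.7% ± 0.975, 9.70% ± 0.0971 and 15.2% ± 0.679 of the transgelin counts in the same groups, and *Cnn1* had 5.65% ± 0.413, 1.79% ± 0.184 and 2.96% ± 0.245 of the calponin counts. *Myh11* went the other way, with 21.5% ± 1.01 of the myosin II heavy chain counts in WT vehicle, 4.85% ± 0.412 in WT bleo and 3.53% ± 0.486 in the bleo libraries labelled *Pear1*-/-. Between the bleo groups the 7 shares did not overlap, 6 of them higher in the bleo libraries labelled *Pear1*-/-. With 3 against 3 libraries the 2-sided exact permutation test gives p = 0.1 at the smallest, which each of these 7 reached (0.133 after Benjamini-Hochberg adjustment over the 28 tests of 7 families and 4 comparisons), so none could pass 0.05.

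**Figure D3:**
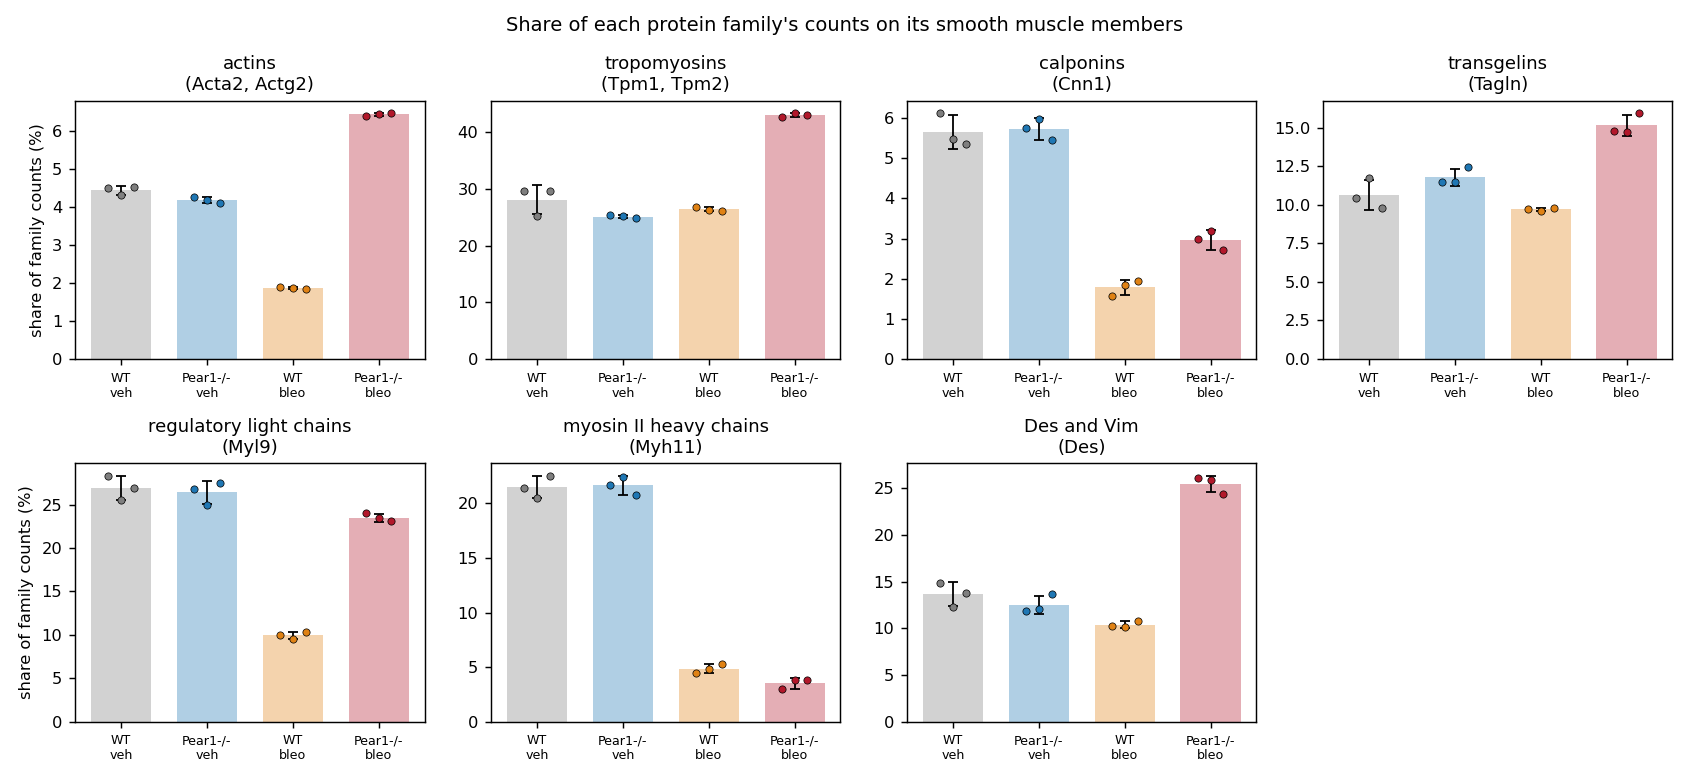
Share of each protein family's counts that falls on its smooth muscle members (y axis, percent, from 0; members in brackets) in the 4 groups (x axis), with points for libraries, bars for the mean and error bars for the SD (n = 3). The mean share is lowest in WT bleo for the actins, calponins, transgelins, regulatory light chains and *Des*, and lowest in the bleo libraries labelled *Pear1*-/- for *Myh11*.

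The sort marker itself differed between the groups, so each member was also expressed per 100 counts of *Pdgfra*. *Pdgfra* changed by -1.74 (standard error 0.0678, adjusted p = 4.53e-14) after bleo in WT, by -0.80 (standard error 0.0660, adjusted p = 5.16e-09) in the libraries labelled *Pear1*-/-, and differed by 0.80 (standard error 0.0666, adjusted p = 1.04e-08) between the bleo groups, so this ratio moves with the marker itself. On this scale *Acta2* was 67.0 ± 7.01 in WT vehicle, 73.0 ± 5.92 in the vehicle libraries labelled *Pear1*-/-, 198 ± 5.88 in WT bleo and 326 ± 3.67 in the bleo libraries labelled *Pear1*-/- (SD, n = 3). WT bleo was above vehicle here, opposite to the normalized counts. *Des* was 16.9 ± 1.01, 18.3 ± 2.71, 67.7 ± 0.259 and 139 ± 4.32, and *Myl9* 36.5 ± 4.99, 43.7 ± 5.01, 54.1 ± 0.665 and 82.6 ± 0.384, in the same order of groups. Between the bleo groups the ratio of *Tpm4* was 289 ± 11.6 in WT bleo and 261 ± 2.59 in the bleo libraries labelled *Pear1*-/-, the reverse of its normalized counts. *Myh11* had 9.08 ± 0.502 and 3.94 ± 0.500. The other 8 members were higher per *Pdgfra* count in the bleo libraries labelled *Pear1*-/-, with no overlap. These ratios are descriptions and were not tested.

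Markers of other cells differed between the groups too, each list in its own way. The 20 leukocyte markers, all above the floor of 3 counts in every library, summed to 29501 to 47278 normalized counts in WT vehicle, 45958 to 51259.7 in the vehicle libraries labelled *Pear1*-/-, 137168 to 139283 in WT bleo and 63956 to 65335 in the bleo libraries labelled *Pear1*-/-. The sum was highest in WT bleo, where *Lyz2*, a gene of macrophages and other myeloid cells named after its values were seen, alone had 74718 ± 898 (SD, n = 3). Against WT vehicle, 13 of the 20 were called higher in WT bleo and 6 lower, the latter *S100a8*, *S100a9*, *Ly6c2*, *Nkg7*, *Cd8a* and *Cd3e*, genes of neutrophils, monocytes and lymphocytes, beside 31.4% and 36.5% of all genes, so the share of the list called lower was not above that of all genes. Between the bleo groups 14 of the 20 were called lower in the bleo libraries labelled *Pear1*-/- than in WT bleo and none higher, beside 24.0% and 22.1% of all genes. The neutrophil genes *S100a8* and *S100a9* lay above their WT bleo values in those libraries without overlap, as did 31.3% of all genes, at 821 ± 39.4 against 435 ± 38.4 and 792 ± 27.9 against 500.1 ± 31.7 (SD, n = 3), and did not pass the test, at 0.90 (adjusted p = 0.123) and 0.65 (adjusted p = 0.332). The part of leukocytes in the lower contractile levels of WT bleo was not tested. The 9 markers of mature smooth muscle cells summed to 2738 to 3429.7 in WT vehicle and 3420.2 to 3584 in the vehicle libraries labelled *Pear1*-/-. After bleo they summed to 647 to 683 in WT and 819.7 to 874 in the libraries labelled *Pear1*-/-. Most of the sum in the vehicle groups is *Hhip*, named after its values were seen. It had 2335 ± 410.1 in WT vehicle, 428 ± 24.4 in WT bleo and 407 ± 19.0 in the bleo libraries labelled *Pear1*-/- (SD, n = 3). The defining marker *Lmod1*, an actin filament nucleator of smooth muscle, had 57.5 ± 7.62 in WT vehicle, 12.4 ± 2.53 in WT bleo and 16.4 ± 2.64 in the bleo libraries labelled *Pear1*-/-. In WT all 9 were called lower after bleo, beside 36.5% of all genes. In the libraries labelled *Pear1*-/- 5 of the 9 were called lower and 1, *Myocd*, higher, at 0.60 (adjusted p = 0.000497), beside 33.1% and 29.1% of all genes. Between the bleo groups 3 of the 9 were called higher in the libraries labelled *Pear1*-/- and 0 lower, beside 22.1% and 24.0% of all genes. In WT bleo and those libraries *Lgr6* had 42.1 ± 6.98 and 97.5 ± 8.64, and *Synpo2* 28.8 ± 5.31 and 54.3 ± 6.54 (SD, n = 3, both named after their values were seen).

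The 10 pericyte markers summed to 3553 to 4268 normalized counts in WT vehicle, 4223 to 4563 in the vehicle libraries labelled *Pear1*-/-, 1988 to 2139 in WT bleo and 3475 to 3702 in the bleo libraries labelled *Pear1*-/-. *Pdgfrb*, which fibroblasts express as well, was the largest part of the last sum, at 2304 ± 64.2 against 1655 ± 132 in the vehicle libraries labelled *Pear1*-/-, while *Abcc9* had 197 ± 27.2 against 1193 ± 51.8 (SD, n = 3, both named after their values were seen). Of the 10, 1 was called higher and 6 lower after bleo in WT, and 3 higher and 6 lower in the libraries labelled *Pear1*-/-. Of all genes, 31.4% were called higher and 36.5% lower in WT, and 29.1% and 33.1% in the libraries labelled *Pear1*-/-, so the list's higher share there was near that of all genes. Of the defining pair, *Rgs5* had 34.5 ± 7.30 in WT bleo and 34.5 ± 5.25 in the bleo libraries labelled *Pear1*-/-, and *Cspg4* 159 ± 5.81 and 205 ± 21.8. Between these groups 3 of the 10 were called higher in the libraries labelled *Pear1*-/- and 2 lower, beside 22.1% and 24.0% of all genes. In WT bleo *Pdgfrb* had 1062 ± 37.8. In the same order of groups *Kcnj8* had 273 ± 12.4 and 510 ± 4.86, and *Notch3* 83.4 ± 8.95 and 49.5 ± 8.69 (both named after their values were seen). The 6 activated fibroblast markers, chosen as genes of fibroblasts in scarring lung, summed to 1060.4 to 1277, 981 to 1049.9, 4711 to 4963 and 12569 to 12619, in the order of groups of the pericyte sums. Between the bleo groups 5 of the 6 were called higher, beside 22.1% of all genes, among them *Cthrc1*, a secreted protein of collagen-producing fibroblasts, at 2.34 (standard error 0.149, adjusted p = 2.49e-08), and *Postn*, at 1.20 (standard error 0.0650, adjusted p = 2.78e-11). The 14 fibroblast markers summed to 166620.0 to 184802 in WT vehicle, 183031 to 190460.0 in the vehicle libraries labelled *Pear1*-/-, 118072 to 119136 in WT bleo and 297399 to 307050.0 in the bleo libraries labelled *Pear1*-/-. Most of the last sum is the collagens *Col1a1*, *Col1a2* and *Col3a1*, with means of 142173, 63672 and 72242 normalized counts. Of the 14, 4 were called higher and 9 lower after bleo in the libraries labelled *Pear1*-/-, beside 29.1% and 33.1% of all genes, with *Dcn*, a matrix proteoglycan, at -2.41 (adjusted p = 4.79e-05). Markers of striated muscle, which shares actin and myosin families with the members, summed to at most 801. The atrial marker *Nppa* was at or under 3 counts in all 12 libraries. Most of the vehicle sums was the actin gene *Actc1*, whose mean was 438 for WT and 512 for the *Pear1*-/- label. After bleo its means were 63.0 and 42.4, WT first. Of 8 striated markers tested, bleo gave 5 lower and 0 higher calls in WT, beside 36.5% and 31.4% of all genes. Under the *Pear1*-/- label it gave 7 lower and 1 higher, beside 33.1% and 29.1%. The 10 epithelial markers, most of whose sum is *Sftpc* and *Scgb1a1*, secreted products of alveolar type II and club cells, summed to 42436 to 60857 in WT vehicle, 16259.6 to 16472 in WT bleo and 7037 to 7246 in the bleo libraries labelled *Pear1*-/-. In WT 8 of them were called lower after bleo and 2 higher, beside 36.5% and 31.4% of all genes. Those higher were the adhesion genes *Epcam*, at 0.36 (adjusted p = 0.0107), and *Cdh1*, at 0.90 (adjusted p = 2.45e-06). In the libraries labelled *Pear1*-/- 9 were called lower after bleo, *Epcam* among them, and *Cdh1* alone higher, at 1.26 (adjusted p = 2.26e-08), beside 33.1% and 29.1% of all genes. In WT vehicle, WT bleo and the bleo libraries labelled *Pear1*-/- the endothelial markers summed to 3734 to 4560.1, 2357 to 2504 and 2379.7 to 2575. The mesothelial markers summed to 679.9 to 879, 283 to 298 and 481 to 503 and the platelet markers to 280.1 to 331, 671 to 705 and 367 to 382. The higher platelet sum in WT bleo is *Pf4* (2.67, adjusted p = 2.24e-13 against WT vehicle), while the other 4 platelet markers were called lower there, beside 36.5% of all genes. Whether the members' differences came from any of these cells was not tested.

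**Figure D4:**
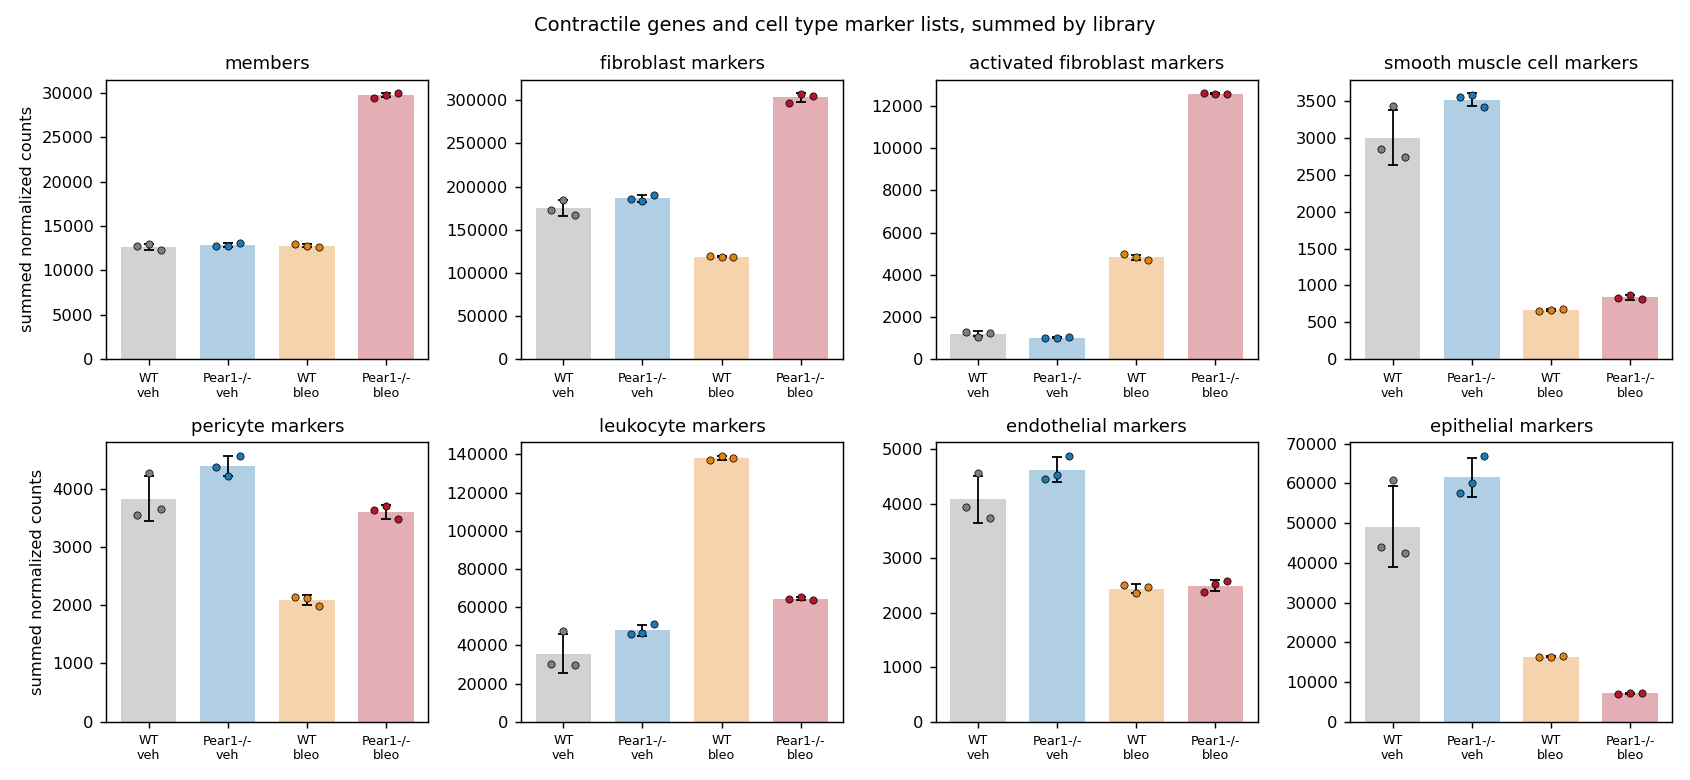
Summed normalized counts (y axis, linear from 0, each panel with its own scale) of the 10 members and of 7 cell type marker lists in the 4 groups (x axis), with points for libraries, bars for the mean and error bars for the SD (n = 3). Leukocyte markers are highest in WT bleo, while the members, activated fibroblast markers and the collagen-dominated sum of fibroblast markers are highest in the bleo libraries labelled *Pear1*-/-.

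Other genes of the contractile apparatus were read beside the members. Of 17 further smooth muscle contractile genes, 0 were higher and 16 lower in WT bleo than in WT vehicle, beside 31.4% and 36.5% of all genes, with a median log2 fold change of -1.37. Of those whose mean log2 CPM reached 3, the largest falls were those of *Synm* (-2.61, adjusted p = 2.69e-12), an intermediate filament protein that pairs with desmin, *Synpo2* (-2.47, adjusted p = 7.51e-11), an actin bundling protein, and *Ppp1r14a* (-2.15, adjusted p = 1.62e-09), an inhibitor of myosin phosphatase. *Lmod1*, under that limit, was at -2.18 (adjusted p = 3.07e-07). Between the bleo groups 10 of the 17 were higher in the bleo libraries labelled *Pear1*-/- and 0 lower, beside 22.1% and 24.0% of all genes, with a median of 0.67. *Fhl2* (1.87, adjusted p = 5.15e-09), an SRF target that binds its cofactors, *Csrp1* (1.20, adjusted p = 1.08e-10) and *Smtn* (1.02, adjusted p = 3.62e-08) differed most. *Synm* and *Ppp1r14a* had 0.14 (adjusted p = 0.509) and 0.37 (adjusted p = 0.0803), so neither was called higher between the bleo groups. In the libraries labelled *Pear1*-/-, bleo against vehicle gave 3 higher and 9 lower of the 17, beside 29.1% and 33.1% of all genes. *Lmod1*, *Synpo2*, *Pln* and *Kcnmb1* are also among the smooth muscle cell markers above. *Myocd* is in those markers and in the regulators below, so the counts of these lists are not separate observations.

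The 8 stress fibre and focal adhesion genes, which anchor actin filaments at the cell surface, included 6 that were higher and 2 that were lower in the bleo libraries labelled *Pear1*-/- than in WT bleo, beside 22.1% and 24.0% of all genes. *Palld* (1.13, adjusted p = 1.87e-07), *Vcl* (1.12, adjusted p = 8.94e-08) and *Actn1* (0.97, adjusted p = 2.31e-08) differed most, while talin (*Tln1*, -0.30, adjusted p = 0.000768) and paxillin (*Pxn*, -0.17, adjusted p = 0.047) were lower. Of the 12 tested non-muscle relatives of the members, 6 were higher and 4 lower, beside 22.1% and 24.0% of all genes, with a median of 0.18. *Cnn3* (1.18, adjusted p = 1.25e-10) and *Myh10* (0.61, adjusted p = 0.000717), which fibroblasts also use, were higher and *Actb* (-0.35, adjusted p = 5.70e-05), *Myl12b* (-0.40, adjusted p = 0.00153) and *Tpm3* (-0.28, adjusted p = 0.00143) lower.

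Among 10 regulators of the contractile programme, 2 were higher and 4 lower in the bleo libraries labelled *Pear1*-/- than in WT bleo, beside 22.1% and 24.0% of all genes. Myocardin, the SRF cofactor of smooth muscle, had 90.4 to 114 normalized counts in WT vehicle, 86.2 to 90.6 in the vehicle libraries labelled *Pear1*-/-, 51.0 to 53.7 in WT bleo and 123 to 142 in the bleo libraries labelled *Pear1*-/-. It was low in WT bleo and highest in the bleo libraries labelled *Pear1*-/-, with log2 differences of -0.92 (standard error 0.144, adjusted p = 1.54e-05) in WT and 1.33 (standard error 0.137, adjusted p = 1.79e-07) between the bleo groups. *Tead1*, whose protein binds CATTCC, was higher in the bleo libraries labelled *Pear1*-/-, at 0.56 (adjusted p = 0.00538). *Srf* was -0.20 (adjusted p = 0.311), *Mkl1* -0.20 (adjusted p = 0.0528) and *Mkl2* -0.19 (adjusted p = 0.138), which did not pass the test. *Klf4*, a repressor of contractile genes, was lower at -0.98 (adjusted p = 3.42e-09), as were *Rock1* (-0.89, adjusted p = 2.67e-06) and *Mef2c* (-0.75, adjusted p = 7.88e-07), genes that leukocytes express too.

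**Figure D5:**
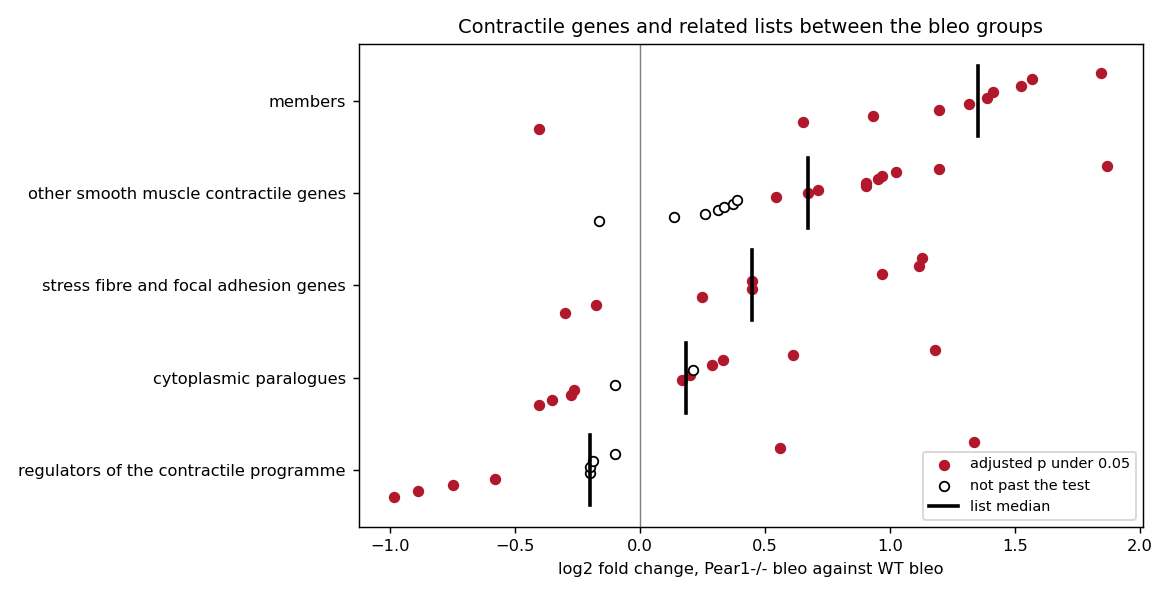
Log2 fold change of the bleo libraries labelled *Pear1*-/- against WT bleo (x axis) for the members and 4 related gene lists (y axis), 1 point a gene, with filled points for an adjusted p under 0.05, open points for the rest and a bar at each list's median. The members' median of 1.35 lies to the right of those of the other lists, and *Myh11* is the one member left of 0.

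Over all tested genes outside the members, those whose log2 CPM over the 12 libraries followed that of *Acta2* most closely were *Col3a1* (Pearson's r = 0.9954, Spearman's rho = 0.9371), *Lmna* (0.9946 and 0.8741), *P3h1* (0.9939 and 0.7762), *Grb10* (0.9937 and 0.8601) and *Fstl1* (0.9932 and 0.7832), of 10444 genes whose mean log2 CPM reached 3. *Col3a1* encodes a fibrillar collagen and *P3h1* an enzyme that modifies collagen, *Lmna* the nuclear lamins A and C, *Grb10* an adaptor of receptor tyrosine kinases and *Fstl1* a secreted glycoprotein. The libraries fall into 4 groups of which 1 stands far above the rest, so r mostly describes that step, and no p is given.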

How the data were processed

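RNA of sorted Cd140a+ lung cells was amplified with the SMART-Seq v4 kit, which does not mark strand, and per the methods the authors aligned the reads with HISAT2 to GRCm38 (mm10). The program that counted reads is not given in the sources used here. The deposited counts are whole reads per gene in 12 libraries, and the deposited normalized signal is those counts divided by a DESeq2 size factor for each library, the form in which levels are printed. No column lacked a sample.

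Counts were tested with edgeR 4.0.16 (TMM scaling, filterByExpr, robust quasi-likelihood fit, all 12 libraries, 1 coefficient a group, Benjamini-Hochberg adjustment) in R 4.3.3. Differences are on the log2 scale. DESeq2 1.42.0 and limma 3.58.1 served as alternatives, and the low-count filter was reapplied whenever a library was left out. Family shares were compared by exact permutation, and promoters and lengths came from RefSeq and GENCODE M21. Replicate numbers did not pair the libraries, as given in the last part. Total counts per library limit precision, and intervals do not cover error shared by amplified reads.

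The members and gene lists were chosen with earlier results of these data known. Named genes of other lists are the 3 with the largest differences among those called whose mean log2 CPM reached 3, with paralogues and regulators that the text turns on added after their values were seen.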

Additional observations from a re-analysis of the deposited data

Results flagged for a closer look

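The effect of bleo on 9 of the 10 members differed between the genotypes as labelled, by the test of the interaction of both factors in the fit of 12 libraries. The value is the log2 fold change of bleo in the libraries labelled *Pear1*-/- minus that in WT, with the adjusted p of edgeR. Among the actin and intermediate filament genes it was 1.53 for *Acta2* (adjusted p = 5.23e-10), 1.22 for *Actg2* (adjusted p = 4.05e-07) and 1.86 for *Des* (adjusted p = 1.84e-09). For the tropomyosins it was 1.30 for *Tpm1* (adjusted p = 1.43e-08), 1.56 for *Tpm2* (adjusted p = 1.91e-09) and 0.57 for *Tpm4* (adjusted p = 0.000211). For the filament-binding proteins and the light chain it was 0.82 for *Tagln* (adjusted p = 7.41e-06), 1.44 for *Cnn1* (adjusted p = 1.32e-06) and 1.28 for *Myl9* (adjusted p = 5.71e-08).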

How the results depend on the processing

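The members' fold changes and counts of calls were recomputed with DESeq2 size factors or total counts as scaling, without the filter on low counts, with DESeq2, with limma on log2 normalized values at pseudocounts of 1 and 8, with a replicate block, on the compared libraries alone (not for the interaction, which needs all 4 groups), and with each of the 12 libraries left out. Family shares were recomputed on normalized values and with each library of the compared groups left out. The calls of the 9 members in the interaction, and those of the 9 higher members between the bleo groups, kept their direction and their side of the threshold in every alternative. Members lower in WT bleo than in WT vehicle numbered 3 without the filter and 3 to 5 with a library left out. Those lower after bleo than after vehicle in the libraries labelled *Pear1*-/- numbered 1 with total counts or without the filter and 1 to 2 with a library left out, the change being that of *Cnn1* (adjusted p = 0.0561 and 0.0778). Members lower between the bleo groups numbered 0 to 1 with a library left out. Between the vehicle groups 1 member was lower with total counts, *Tpm1* (log2 fold change -0.26, adjusted p = 0.0493), and leaving out a library gave 0 to 3 higher and 0 to 1 lower. In WT, *Acta2* ranged from -0.18 to -0.078 with a library left out and from -0.27 to -0.036 over all alternatives, the last without the filter (adjusted p = 0.767), *Tpm2* was -0.11 (adjusted p = 0.386) without the filter, and *Tagln* changed sign, at 0.088 without the filter and -0.088 to 0.089 with a library left out. *Myl9* was called in the libraries labelled *Pear1*-/- with total counts (0.18, adjusted p = 0.0272). Without the filter, the median of all genes in WT bleo moved by 0.13. The cause of these changes was not tested.

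Between the vehicle groups, where no member was called, signs changed. With total counts *Tagln* was -0.032, *Myl9* -0.020, *Actg2* -0.051, *Tpm2* -0.14 and *Tpm4* -0.056, and without the filter *Acta2* was 0.087, *Cnn1* 0.044 and *Des* 0.080. On the compared libraries alone *Tpm2* was -0.00275. With a library left out *Acta2* ran from -0.026 to 0.091, *Des* from -0.095 to 0.10, *Cnn1* from -0.10 to 0.031 and *Tpm1* from -0.10 to 0.0012. Family share differences that changed sign there ran from -0.0673 to 0.313 percentage points for calponins, -1.18 to 0.264 for regulatory light chains and -0.340 to 0.672 for myosin heavy chains, with a library left out.

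Replicate numbers did not pair the libraries: deviations of same-numbered libraries correlated at -0.293 to 0.0647. With the replicate block no member's call changed, and the count past both criteria for bleo against vehicle in the libraries labelled *Pear1*-/- was 7, against 7 without it. Protein identity within families was not run, since no protein table was at hand. Depth limits *Cnn1* and *Myh11* most, the members with the fewest counts in the bleo groups.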
